A study of Mus musculus with 13 samples.

Results

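The nuclear genes for subunits of the mitochondrial respiratory chain and ATP synthase were compared between young and aged mandibular condylar cartilage, the tissue on the jaw side of the temporomandibular joint. The members are the 89 of 18748 genes in the deposited table whose symbols name subunits of complexes I to IV, cytochrome c or ATP synthase. Of these, 78 encode the ubiquitous subunits, 3 the heart and skeletal muscle isoforms of complex IV (Cox6a2, Cox7a1 and Cox8b), 3 other tissue isoforms, and 5 are near copies or proteins that are not core parts of the enzymes. Messenger RNA was sequenced in 7 libraries of mice aged 2 months and 6 of mice aged 18 months. The labels name no treatment, strain or sex, and do not say whether each library is 1 mouse, so p-values measure only the spread between these libraries, which may be technical. Library totals were 17531700 to 18203400 expected counts in young and 16356800 to 17876700 in aged libraries. The 13 subunits that the mitochondrial genome encodes are not analysed here.

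Complex I and complex II take electrons from nutrients and pass them through ubiquinone to complex III. Cytochrome c carries them on to complex IV, which gives them to oxygen, and ATP synthase uses the resulting proton gradient to make ATP. Cartilage has few vessels and its cells are known to make much of their ATP by glycolysis, whereas skeletal muscle fibres are rich in respiratory chain complexes and use their own isoforms of some complex IV subunits.

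The tissue markers differed widely between the ages. Chondrocyte markers took 2.52% to 3.77% of all counts in young and 0.846% to 1.87% in aged libraries, and 7 of 9 were lower in aged cartilage. Their matrix genes Col2a1 and Acan were abundant in both ages, while Matn1 had a mean of 0.745 CPM (counts scaled to library size) in young and 0.0271 in aged libraries. Osteoblast markers took 10.3% to 12.2% and 3.45% to 4.83%, with 7 of 9 lower, Sost higher and Alpl neither. Col1a1 had the highest mean of these, 102993 CPM in young and 27257 in aged libraries, so it weighs most in their share. Osteoclast markers, of which 6 of 7 were lower, took 0.384% to 0.489% and 0.174% to 0.309%. Fat cell markers took 0.00211% to 0.00430% in young and 0.00508% to 0.00956% in aged libraries. Of the 3 with enough counts to test, 2 were higher in aged ones, Plin4 (means 7.66 and 34.0 CPM) and Adipoq (4.19 and 6.84), but not Dio2. Of those too low to test, Plin1, Cidec and Lep had lower means in aged libraries, and Ucp1, Cidea and Elovl3 higher ones. Skeletal muscle markers took 0.0666% to 0.644% and 0.697% to 2.17%, and all 18 were detected in both ages (17 higher in aged). Of the erythroid markers 15 of 15, and of the neutrophil markers 12 of 13, were higher in aged libraries. In bulk tissue, a change in the number of cells of a type and a change in RNA per cell cannot be told apart.

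Most ubiquitous subunits were higher in aged cartilage. Of the 78, 52 rose, 1 fell and 25 were not called, by edgeR's quasi-likelihood test over 14067 genes with an adjusted p under 0.05. Of all tested genes 24.7% were called higher and 21.6% lower. The log2 fold changes (aged over young) had a median of 0.50, a fold of 1.41, against 0.01 over all tested genes, and ran from −0.24 (Cox6a1) to 1.01 (Ndufs7). The rises were small: 25 of the 78 were called and at least 1.5-fold higher, and 1 (Ndufs7) at least 2-fold, against 14.4% and 8.67% of all tested genes. The ages overlapped for all but 2 of them, Ndufs7 and Ndufv1, whereas 8.28% of all tested genes had every aged library above every young one. With a skeletal muscle marker score as a covariate none of the 78 was called, while 24.1% of all tested genes were. The count moved with single libraries, from 38 without aged 5 (23.1% of all tested genes higher) to 68 without aged 1 (23.6%), and was 47 with the replicate number as a block (21.9%). Other scalings moved the background too: library sizes alone called 74 of the 78 and 50% of all tested genes higher, and limma on log2(FPKM + 1) or log2(FPKM + 0.1) called 59 of the 78, with 44.4% and 44.3% of all.

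**Figure D1:**
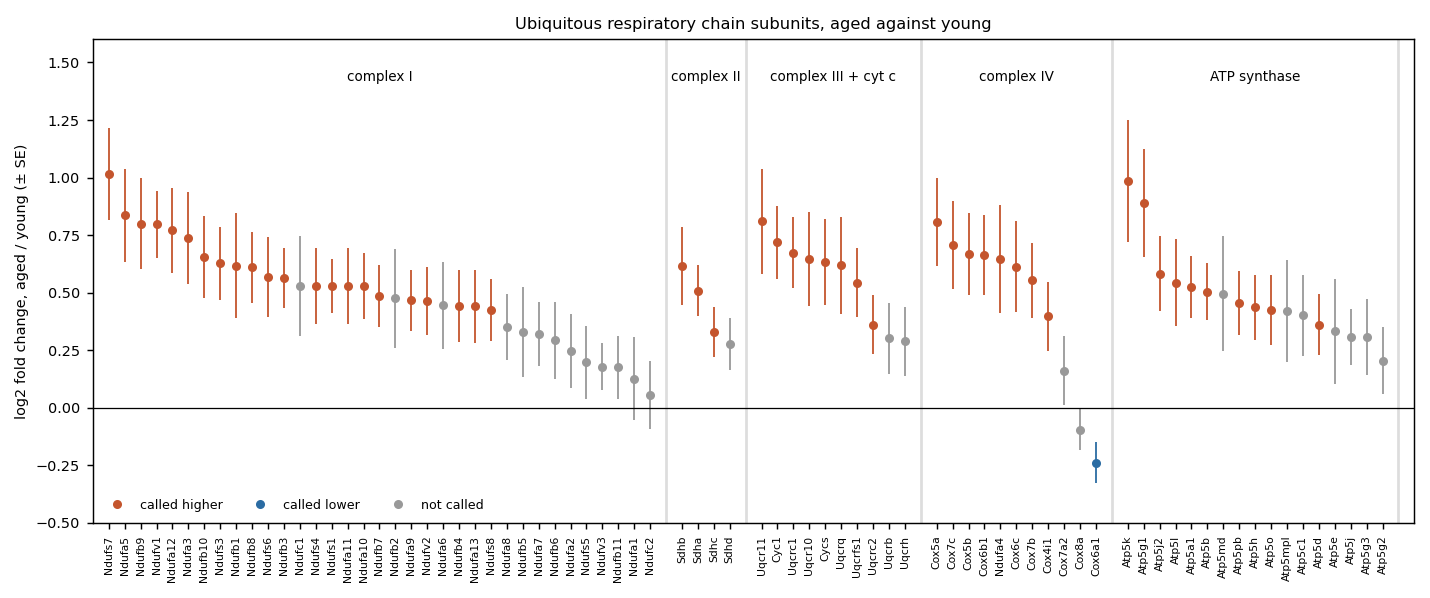
Log2 fold change of aged over young for 77 of the 78 ubiquitous subunits, ordered within each complex (points, edgeR estimate; bars, ± 1 SE; 7 young and 6 aged libraries). Points are coloured by the call at an adjusted p of 0.05: 51 lie above 0 as called higher, and Cox6a1 is the 1 called lower.

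The aged libraries did not move together. Each library's level was taken as the median over the 78 subunits of its log2 CPM relative to the mean of the young libraries. It was 0.91 in aged 2, 0.82 in aged 5, 0.72 in aged 3 and 0.35 in aged 6, but −0.01 in aged 4 and −0.10 in aged 1. The young libraries lay between −0.15 and 0.25, so aged 1 and aged 4 fell within the young range and the other 4 aged libraries above it. In aged 2 and aged 5 each, 76 of the 78 subunits were above the highest young library, in aged 3 68 and in aged 6 59, but in aged 1 and aged 4 only 3 each. The same shares of all tested genes were not taken for single libraries, so these counts have no background beside them. The coefficient of variation was larger in aged than in young libraries for 78 of 78 subunits, with medians of 28.4% and 12.1%. Its share over all tested genes was not taken. Aged libraries also differed more from each other across the whole table. The chi-square per degree of freedom between 2 libraries was 33.8 to 91.9 among aged and 10.2 to 24.9 among young ones. Young 2 was the highest young library for 48 of the 78.

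**Figure D2:**
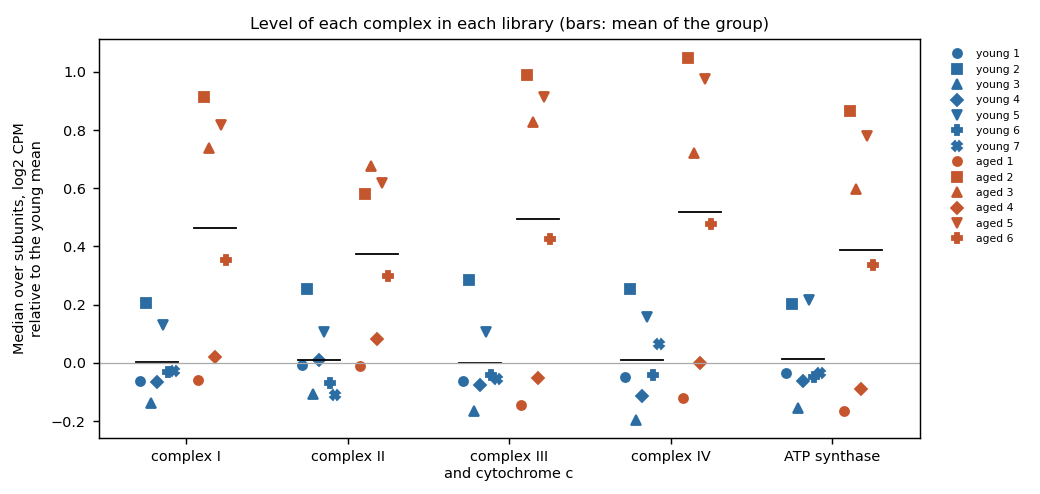
Level of each complex in each library, as the median over its ubiquitous subunits of log2 CPM relative to the young mean (one symbol per library; black bars, mean of the age group). In each of the 5 groups aged 2, 3 and 5 lie highest, and aged 1 and aged 4 lie at about the level of the young libraries.

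Complex I, which oxidises NADH, had 23 of its 36 nuclear subunits called higher and none lower, with a median log2 fold change of 0.48. All 7 of its nuclear core subunits, among them those that hold the flavin and the iron-sulphur clusters, rose (median 0.53), against 16 of 29 accessory subunits (median 0.48). Whether core and accessory subunits differed was not tested. Ndufs7 (gene ID 75406), a core subunit near the site where ubiquinone is reduced, had the largest rise. Its TMM-normalised CPM ran from 24.6 to 35.8 (median 28.7) in young and from 36.7 to 89.6 (median 58.5) in aged libraries, a log2 fold change of 1.01 ± 0.20 (SE; adjusted p = 0.00101, edgeR). Aged 4 and aged 1, at 36.7 and 37.4 CPM, were just above the highest young library, and aged 3 was the highest.

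Ndufv1, the core subunit that holds the flavin and takes electrons from NADH, ran from 54.3 to 78.4 CPM (median 61.9) in young and from 79.4 to 146 (median 107) in aged libraries. Its log2 fold change was 0.80 ± 0.14 (SE, edgeR adjusted p = 5.77e-04), and the ages did not overlap. Ndufs1, the largest core subunit, rose by 0.53 ± 0.12 on the log2 scale (SE, edgeR adjusted p = 0.00206). Among the accessory subunits Ndufa5 had the largest rise, from a median of 11.7 CPM (9.10 to 16.7) in young to 21.9 (13.3 to 29.0) in aged libraries. Its log2 fold change was 0.84 ± 0.20 (SE, edgeR adjusted p = 0.00417), with aged 1 and aged 4 inside the young range. Ndufc2, another accessory subunit, had the smallest change of the complex. It ran from 21.4 to 31.7 CPM in young and from 20.2 to 38.6 in aged libraries, with a log2 fold change of 0.06 ± 0.15 (SE; adjusted p = 0.777, edgeR). Ndufa3, a small accessory subunit, had the highest deposited FPKM (a level per length of transcript) of complex I, 232 ± 18.2 (SD, n = 7) in young and 314 ± 62.3 (SD, n = 6) in aged libraries. Its log2 fold change in counts was 0.74 ± 0.20 (SE, edgeR adjusted p = 0.00824). In counts Ndufa3 was lower than Ndufs7 and Ndufv1, with a median of 11.8 CPM in young and 22.0 in aged libraries.

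Complex II, which oxidises succinate and is also an enzyme of the citric acid cycle, had 3 of 4 subunits called higher. Sdha, the flavoprotein, ran from 166 to 217 CPM (median 180) in young and from 213 to 342 (median 251) in aged libraries, a log2 fold change of 0.51 ± 0.11 (SE; adjusted p = 0.00174, edgeR). The overlap came from young 2, the highest young library, which exceeded aged 6, the lowest aged one. Sdhb, the iron-sulphur subunit, rose the most, from a median of 46.9 CPM (40.0 to 55.7) to 74.3 (47.2 to 95.4), a log2 fold change of 0.62 ± 0.17 (SE; adjusted p = 0.00875, edgeR). Of the membrane anchors, Sdhc had a log2 fold change of 0.33 ± 0.11 (SE; adjusted p = 0.0216, edgeR), which missed the threshold without aged 5 (adjusted p = 0.0553). Sdhd had 0.28 ± 0.11 and was not called (SE, edgeR adjusted p = 0.0590), and passed the threshold without aged 1 (0.0152) or aged 4 (0.0139).

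Complex III, which passes electrons from ubiquinol to cytochrome c, and cytochrome c itself had 8 of 10 genes called higher, with a median log2 fold change of 0.63. Cyc1, the cytochrome c1 subunit, ran from 58.7 to 80.4 CPM (median 65.9) in young and from 73.8 to 150 (median 106) in aged libraries, a log2 fold change of 0.72 ± 0.16 (SE; adjusted p = 0.00233, edgeR). Cycs, the somatic cytochrome c, ran from 56.0 to 79.8 CPM (median 60.3) and from 54.4 to 137 (median 96.9), a log2 fold change of 0.63 ± 0.19 (SE; adjusted p = 0.0129, edgeR). For both, aged 2, 3 and 5 were the highest libraries, and the lowest aged library of Cycs, aged 1, was below every young one. Uqcrc1 rose by 0.67 ± 0.15 and Uqcrfs1, the Rieske iron-sulphur subunit, by 0.54 ± 0.15 on the log2 scale (SE, edgeR adjusted p = 0.00295 and 0.00917). Uqcr11, the smallest subunit of the complex, had the largest rise, 0.81 ± 0.23 (SE, edgeR adjusted p = 0.0101), from 20.9 to 30.5 CPM in young and from 21.8 to 63.0 in aged libraries. Averaged over the libraries it was also the most abundant per length, at 207 ± 25.8 FPKM (SD, n = 7) in young and 329 ± 99.5 (SD, n = 6) in aged libraries. The hinge subunit Uqcrh had the smallest log2 fold change of the complex, 0.29 ± 0.15, and was not called (SE, edgeR adjusted p = 0.132; 0.0276 without aged 1).

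ATP synthase had 10 of 17 nuclear subunits called higher and none lower, with a median log2 fold change of 0.44. In its catalytic F1 head 3 of 5 rose, and in the remaining subunits 7 of 12. Atp5b and Atp5a1, which form the ring of the head, were the members with the most counts. Atp5b ran from 473 to 661 CPM (median 515) in young and from 577 to 926 (median 764) in aged libraries, a log2 fold change of 0.50 ± 0.12 (SE; adjusted p = 0.00441, edgeR). Atp5a1 ran from 405 to 542 CPM (median 430) and from 468 to 817 (median 639), a log2 fold change of 0.53 ± 0.13 (SE; adjusted p = 0.00553, edgeR). For both genes the overlap came from young 2 alone, which exceeded the lower aged libraries, and every other young library was below every aged one. Per length, the most abundant was Atp5j2, a small subunit of the membrane part, at 379 ± 38.4 FPKM (SD, n = 7) in young and 519 ± 101 (SD, n = 6) in aged libraries, with a log2 fold change in counts of 0.58 ± 0.16 (SE, edgeR adjusted p = 0.00968). Atp5k, another small membrane subunit, had the largest log2 fold change, 0.99 ± 0.27 (SE, edgeR adjusted p = 0.00790), from 7.08 to 10.998 CPM in young and from 7.78 to 29.1 in aged libraries. With the length of transcript that each library could sample as an offset, described further on, Atp5k had 0.39 (edgeR adjusted p = 0.104) and Atp5j2 0.25 (0.0862), neither called, and 4 of 17 were called higher where 24.5% of all tested genes were. Without aged 2, and also without aged 5, 6 of 17 were called higher, where 23.3% and 23.1% of all tested genes were.

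The rotor ring of ATP synthase is built from one c protein made by several genes, and their levels changed unequally. Atp5g1 ran from 44.4 to 75.5 CPM (median 50.3) in young and from 54.2 to 144 (median 103) in aged libraries, a log2 fold change of 0.89 ± 0.23 (SE; adjusted p = 0.00706, edgeR; 0.79 with the length offset, still called). Atp5g3 had 0.31 ± 0.17 (SE, adjusted p = 0.148; 0.0314 without aged 1 and 0.0498 without aged 4) and Atp5g2 0.20 ± 0.14 (SE, adjusted p = 0.267), and neither was called by edgeR. The log2 ratio of Atp5g1 to Atp5g3, from FPKM, was −1.14 ± 0.18 (SD, n = 7) in young and −0.59 ± 0.23 (SD, n = 6) in aged libraries. The difference of 0.55 had an adjusted p of 0.00262 by a two-sided exact permutation test of the library labels, adjusted over 6 isoform pairs. The share of Atp5g1 in the sum of both genes was 28.7% to 36.9% in young and 35.02% to 46.8% in aged libraries, so the groups overlapped only through young 2 and aged 4.

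Complex IV, cytochrome c oxidase, was the complex whose subunits split. Of its 11 ubiquitous nuclear subunits 8 rose and 1 fell, with a median log2 fold change of 0.61. The 8 that rose ran from 0.40 to 0.81 on the log2 scale, and the other 3, Cox6a1, Cox7a2 and Cox8a, are those with a muscle isoform; a difference between these sets was not tested. Cox5a, which lies on the matrix side of the enzyme, had the largest rise. It ran from 38.1 to 60.2 CPM (median 41.8) in young and from 49.9 to 107 (median 84.1) in aged libraries, a log2 fold change of 0.81 ± 0.19 (SE; adjusted p = 0.00367, edgeR). Young 2 was the highest young library, and aged 1 and aged 4 the lowest aged ones. Cox7c, a small membrane subunit, rose by 0.71 ± 0.19 on the log2 scale (SE, edgeR adjusted p = 0.00823), from 31.3 to 47.7 CPM in young and from 36.6 to 88.3 in aged libraries. Cox5b, which binds zinc, and Cox6b1, on the intermembrane space side, rose by 0.67 ± 0.18 and 0.66 ± 0.17 (SE, edgeR adjusted p = 0.00736 and 0.00671).

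Cox4i1, the ubiquitous form of the subunit that is known to bind ATP and ADP, was on average over the libraries the most abundant complex IV subunit per length, at 368 ± 33.6 FPKM (SD, n = 7) in young and 523 ± 127 (SD, n = 6) in aged libraries. Its log2 fold change in counts was 0.40 ± 0.15 (SE, edgeR adjusted p = 0.0433). Ndufa4, counted here with complex IV, had 0.65 ± 0.24 (SE, edgeR adjusted p = 0.0377). Both calls were close to the threshold: of the 13 fits that left out 1 library, 10 lost the call of Cox4i1 (adjusted p up to 0.110, without aged 2) and 9 that of Ndufa4 (up to 0.103, without aged 2). The number of complex IV subunits called higher fell to 5 without aged 2 and also without aged 5, where 23.3% and 23.1% of all tested genes were.

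None of the 3 ubiquitous subunits with muscle partners was called higher. Cox6a1 (gene ID 12861), a regulatory subunit, ran from 83.8 to 112 CPM (median 95.9) in young and from 72.1 to 101 (median 81.4) in aged libraries, a log2 fold change of −0.24 ± 0.09 (SE; adjusted p = 0.0374, edgeR). Aged 5 and aged 6 lay within the young range, and aged 1 and aged 4 were the lowest. Cox8a, a small membrane subunit, had −0.10 ± 0.09 (SE, edgeR adjusted p = 0.401) and Cox7a2 0.16 ± 0.15 (SE, edgeR adjusted p = 0.400). Scaled by library size alone, which moved the median of all genes from 0.01 to 0.24, Cox6a1 had −0.01 (edgeR adjusted p = 0.960), Cox8a 0.14 (0.221) and Cox7a2 0.39 (0.0335). The call of Cox6a1 was also lost in 8 of the 13 fits without 1 library (edgeR adjusted p up to 0.0783, without young 7).

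The muscle isoforms had the largest changes of any members. Cox6a2 (gene ID 12862), the muscle form of Cox6a1, was in young libraries at 3.48, 37.6, 4.62, 23.7, 14.7, 6.00 and 3.48 CPM (young 1 to 7) and in aged libraries at 33.3, 139, 136, 34.8, 99.4 and 53.5 CPM (aged 1 to 6). Its log2 fold change was 2.63 ± 0.60 (SE, edgeR adjusted p = 0.00304). Young 2 exceeded aged 1 and aged 4, and aged 2, 3 and 5 were the highest. Cox7a1 (gene ID 12865), the muscle form of Cox7a2, ran from 0.856 to 8.34 CPM (median 2.28) in young and from 4.99 to 38.4 (median 27.9) in aged libraries, a log2 fold change of 2.69 ± 0.59 (SE; adjusted p = 0.00232, edgeR). Cox8b (gene ID 12869), the muscle form of Cox8a, ran from 0.978 to 9.48 CPM (median 1.29) and from 8.43 to 37.4 (median 23.7), a log2 fold change of 2.80 ± 0.58 (SE; adjusted p = 0.00164, edgeR). For both, young 2 was the highest young library and aged 4 the lowest aged one, below young 2. Each of the 3 stayed called with any 1 library left out, and none was called with the muscle marker score as a covariate.

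Against its partner each muscle isoform took a larger share in aged libraries. Of the summed FPKM of Cox6a2 and Cox6a1, Cox6a2 made 1.96% to 19.95% (median 3.92%) in young and 22.1% to 54.6% (median 34.7%) in aged libraries, and the ages did not overlap. Cox8b made 4.44% to 31.0% (median 6.46%) and 33.6% to 61.5% (median 48.2%) of its pair, again without overlap. Cox7a1 made 12.3% to 60.1% (median 33.7%) and 53.3% to 79.9% (median 75.2%), where young 2 and young 4, at 59.6% and 60.1%, exceeded aged 4, and young 4 also exceeded aged 1 (59.8%). The log2 ratios differed by 3.27, 2.94 and 2.27 between the ages, with adjusted p of 0.00262, 0.00262 and 0.00629 by the two-sided exact permutation test over the 6 pairs. The summed FPKM of Cox7a1 and Cox7a2 went from 132 ± 42.7 (SD, n = 7) in young to 378 ± 192 (SD, n = 6) in aged libraries. FPKM divides by a length that differs within pairs. In young libraries it was 62.7 bases for Cox7a1 and 420 for Cox7a2, and 56.9 for Cox8b and 213 for Cox8a. For Cox6a2 and Cox6a1 it was 326 and 206 bases. In counts, each muscle isoform had a lower median than its partner in aged libraries. Cox7a1 had 27.9 CPM against 40.4, Cox8b 23.7 against 65.5 and Cox6a2 76.4 against 81.4.

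**Figure D3:**
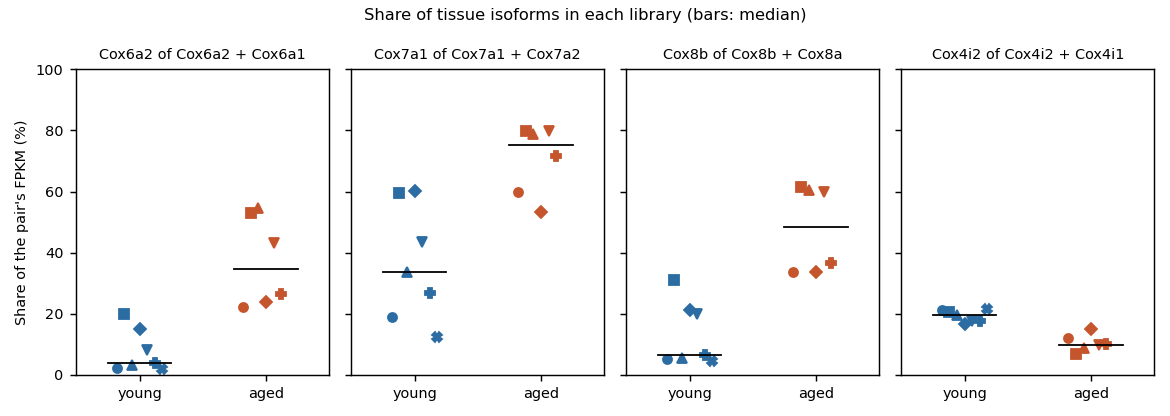
Share of each tissue isoform in the summed FPKM of its pair, in percent, for every library (circle, square, up triangle, diamond, down triangle, plus and cross stand for replicates 1 to 7; black bars, median). The muscle isoforms Cox6a2, Cox7a1 and Cox8b are higher in aged libraries (medians 34.7%, 75.2% and 48.2%) and Cox4i2 is lower (median 9.88% against 19.5%). FPKM is a level per length, and lengths differ within pairs, so these are not shares of counts.

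Other isoforms went different ways. Cox4i2, the isoform known from lung and from low oxygen, was lower in all aged libraries: it ran from 28.6 to 46.6 CPM (median 36.4) in young and from 19.9 to 26.3 (median 22.4) in aged libraries. Its log2 fold change was −0.72 ± 0.11 (SE, edgeR adjusted p = 1.46e-04), and the ages did not overlap, which held for 10.9% of all tested genes in that direction. Its share beside Cox4i1 was 16.6% to 21.4% in young and 6.89% to 14.999% in aged libraries, a difference of −1.07 in the log2 ratio (adjusted p = 0.00262, two-sided exact permutation test). Cox6b2, known from testis, was low but called higher, from 0.506 to 1.57 CPM in young and from 1.53 to 3.17 in aged libraries (log2 fold change 1.19 ± 0.25, SE, edgeR adjusted p = 0.00183). Ndufa4l2, a relative of Ndufa4 induced at low oxygen, had 0.27 ± 0.11 (SE, edgeR adjusted p = 0.0609, 0.0397 by DESeq2, and 0.0274 and 0.0226 by edgeR without young 2 or aged 1). Its log2 ratio to Ndufa4 differed by −0.08 between the ages (adjusted p = 0.751, two-sided exact permutation test), and by 0.07 without aged 2 and 0.01 without aged 5. Cox7a2l, which joins complexes III and IV, had −0.11 ± 0.10 (SE, edgeR adjusted p = 0.403; 0.0397 without aged 2). Ndufb4c, a near copy of Ndufb4, had 0.71 ± 0.26 (SE, edgeR adjusted p = 0.0381); reads may be split between the copies, so its value is uncertain, and its call was lost in 10 of the 13 fits without 1 library (up to 0.0941, without aged 5). Cox7b2, Ndufb4b and Ndufs6b had at most 3 counts in any library and were not tested.

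Promoters are shown for subunits that moved in different ways: the 2 muscle isoforms with an entry, a ubiquitous subunit that fell (Cox6a1), and subunits that rose (Cox5a and Cycs). Each is the 250 bases before the gene's start, 5′ to 3′ on the gene's strand, from RefSeq on GRCm38.p6, a build other than that of the deposited table. A set of 5 short motifs was searched on both strands, and capitals mark the matches. The positions are chr7:140900447-140900696, minus strand, chr7:30183921-30184170, plus strand, chr5:115348959-115349208, minus strand, chr9:57520982-57521231, plus strand, and chr6:50566570-50566819, minus strand.
Cox8b: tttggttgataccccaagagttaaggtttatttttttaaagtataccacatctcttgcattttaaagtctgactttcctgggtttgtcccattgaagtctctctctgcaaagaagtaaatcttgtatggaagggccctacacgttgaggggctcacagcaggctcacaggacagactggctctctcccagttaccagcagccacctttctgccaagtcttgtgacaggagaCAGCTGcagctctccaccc
Cox7a1: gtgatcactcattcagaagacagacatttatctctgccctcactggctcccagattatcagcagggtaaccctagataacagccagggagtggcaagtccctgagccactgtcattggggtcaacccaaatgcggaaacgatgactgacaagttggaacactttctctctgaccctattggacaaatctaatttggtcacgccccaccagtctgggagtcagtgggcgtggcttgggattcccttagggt
Cox6a1: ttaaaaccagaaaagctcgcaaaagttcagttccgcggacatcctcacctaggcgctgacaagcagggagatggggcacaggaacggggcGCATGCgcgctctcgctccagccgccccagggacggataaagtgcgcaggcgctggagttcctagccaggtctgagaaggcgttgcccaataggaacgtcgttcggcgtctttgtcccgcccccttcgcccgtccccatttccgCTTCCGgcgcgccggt
Cox5a: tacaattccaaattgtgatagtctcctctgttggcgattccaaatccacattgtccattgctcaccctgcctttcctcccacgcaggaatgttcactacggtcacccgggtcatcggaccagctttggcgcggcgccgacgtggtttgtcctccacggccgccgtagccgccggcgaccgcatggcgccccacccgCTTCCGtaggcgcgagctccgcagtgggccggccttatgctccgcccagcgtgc
Cycs: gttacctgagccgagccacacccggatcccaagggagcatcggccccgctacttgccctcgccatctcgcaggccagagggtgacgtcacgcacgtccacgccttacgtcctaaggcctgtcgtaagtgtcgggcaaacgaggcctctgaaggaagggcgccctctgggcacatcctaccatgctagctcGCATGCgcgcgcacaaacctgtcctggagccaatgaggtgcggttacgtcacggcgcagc

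The capitals in Cox8b mark CAGCTG, the E-box letters bound by myogenic factors, which begin 19 bases before the start. In Cox6a1 they mark GCATGC, the core of the site of nuclear respiratory factor 1 (NRF1), 160 bases before the start, and CGGAAG, the core of sites of ETS factors such as GABP, on the other strand 16 bases before it. Cox5a has CGGAAG on the other strand at 54 bases and Cycs GCATGC at 60 bases, and Cox7a1 has none of the motifs. A promoter was found for 71 of the 89 members, 65 of them ubiquitous subunits. Among these 65, GCATGC was present in 18.5% against 7.62% of the promoters of 27025 genes, and CGGAAG in 33.8% against 15.3%. AAGGTCA, the single site of oestrogen-related receptors, was present in 7.69% against 4.70%, CAGCTG in 7.69% against 14.7%, and TATAAA in 9.23% against 14.3%. No overlap between motifs occurs in the printed promoters, and a match is a description of letters, not of binding.

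The subunit levels moved beside the skeletal muscle markers. Aged 3, 2 and 5, with 2.17%, 2.06% and 1.85% of their counts in the 18 muscle markers, were the 3 libraries highest in the ubiquitous subunits. Young 2 had the highest muscle share of the young libraries (0.644%) and the highest subunit level, but young 4, with the second highest (0.492%), had a subunit level of −0.06, within the range of the other young libraries. Aged 1 and aged 4 had a larger share of counts in muscle markers than any young library (0.697% and 0.900%) but subunit levels in the young range. Aged 6, with 0.744%, was above that range. These shares are of all counts, whereas the subunit levels are TMM-normalised. As a share of all counts, the ubiquitous subunits took 0.518% in aged 1 and 0.476% in aged 4, against 0.384% to 0.484% in young libraries. In the mean TMM-normalised log2 CPM of the muscle markers, aged 1 (7.38) and aged 6 (7.56) were below young 2 (7.77) and young 4 (7.66). Among the markers, Ckm, the creatine kinase of muscle, had a mean of 183 ± 163 CPM (SD, n = 7) in young and 972 ± 579 (SD, n = 6) in aged libraries.

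With the muscle marker score of each library as a covariate, 0 of the 78 ubiquitous subunits and 0 of the 3 muscle isoforms were called in either direction by edgeR, and 0 of the 78 had an unadjusted p under 0.05. Of all tested genes 24.1% were called there, in either direction. The median log2 fold change of the ubiquitous subunits was 0.06 in that fit, and of the muscle isoforms 0.71. Ndufs7 had 0.36 ± 0.25 and Cox8b 0.78 ± 0.50 (SE). The median SE of the ubiquitous subunits was 0.22 there and 0.16 without the covariate. With a score of erythroid and neutrophil markers instead, 28 of the 78 were called higher and the median was 0.94, against 9.09% of all tested genes called higher. Of the other isoforms, Cox4i2 and Cox6b2 were still called by edgeR with the muscle score, at −0.76 (adjusted p = 0.00737) and 1.31 (0.0369), but not with the erythroid and neutrophil score, at −0.55 (adjusted p = 0.134) and 0.63 (0.417). Both scores were higher on average in aged libraries, and their correlations with age were 0.78 (muscle) and 0.89 (erythroid and neutrophil). The muscle score overlapped between the ages, with young 2 (7.77) and young 4 (7.66) above aged 1 (7.38) and aged 6 (7.56), whereas every aged library was above every young one in the erythroid and neutrophil score. Age and these marker levels cannot be told apart fully in 13 libraries.

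**Figure D4:**
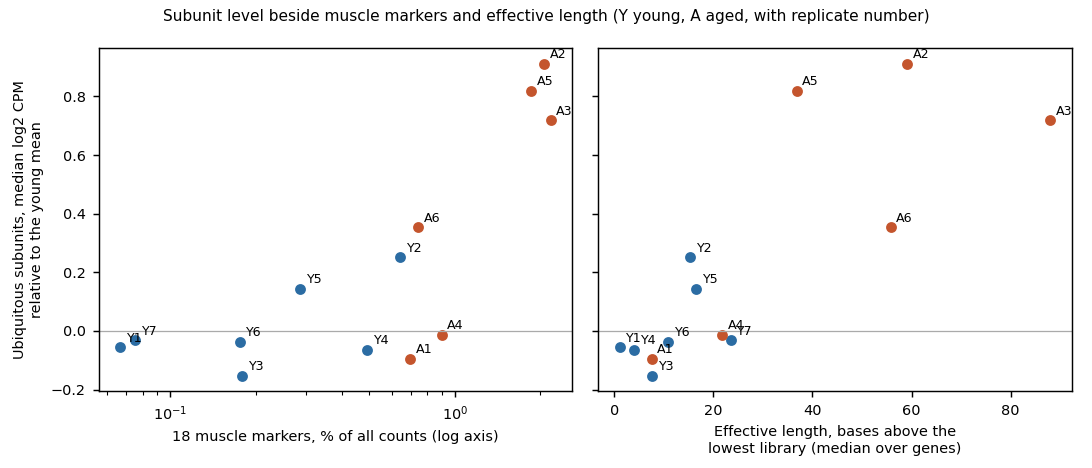
Median log2 CPM of the ubiquitous subunits relative to the young mean in each library (y axis) against the percent of counts in 18 muscle markers (left, log axis) and against the effective length in bases above the lowest library (right). Aged 2, 3 and 5 are highest in muscle markers and in subunits, and aged 1 and aged 4 lie at the young subunit level with muscle shares of 0.697% and 0.900%. Muscle shares are of all counts, whereas subunit levels are TMM-normalised.

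Many subunits have short transcripts, and the libraries differed in a measure that bears on these. The length by which the deposited FPKM divides each count, the effective length, is the number of places where a fragment can start, and it is longer in a library of shorter fragments. Its median over genes was 1.18 to 23.6 bases above the lowest library value in young libraries. In aged libraries it was 7.55 bases above in aged 1, 21.9 in aged 4, 36.8 in aged 5, 55.8 in aged 6, 59.1 in aged 2 and 88.0 in aged 3. The ubiquitous subunits had a median effective length of 380 bases in young libraries, against 2590 over 11639 genes, and 49 of the 78 were under 500 bases. For Atp5k, with the shortest, it was 32.5 bases in young and 49.1 in aged libraries, and for Sdha 2525 and 2559.

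With each gene's effective length in each library as an offset, 37 of the 78 ubiquitous subunits were called higher and 2 lower, with a median log2 fold change of 0.35. In this fit 24.5% of all tested genes were called higher and 21.6% lower. Atp5k had 0.39 ± 0.19 (SE, edgeR adjusted p = 0.104) in place of 0.99, and Ndufa3 0.23 ± 0.12 (SE, edgeR adjusted p = 0.118) in place of 0.74. The longer Ndufv1, Sdha and Cycs moved little, at 0.78, 0.51 and 0.64, and each was still called. Ndufs7, with 445 bases in young libraries, had 0.94 in place of 1.01 and was also still called. All 7 core subunits of complex I and 3 of 4 of complex II were called higher, as were 7 of 10 genes of complex III and cytochrome c, 5 of 11 of complex IV and 4 of 17 of ATP synthase. Cox6a1 and Cox8a, at −0.42 and −0.27, were called lower (edgeR adjusted p = 7.20e-04 and 0.0209). The 3 muscle isoforms were still called, at 2.19 to 2.48.

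**Figure D5:**
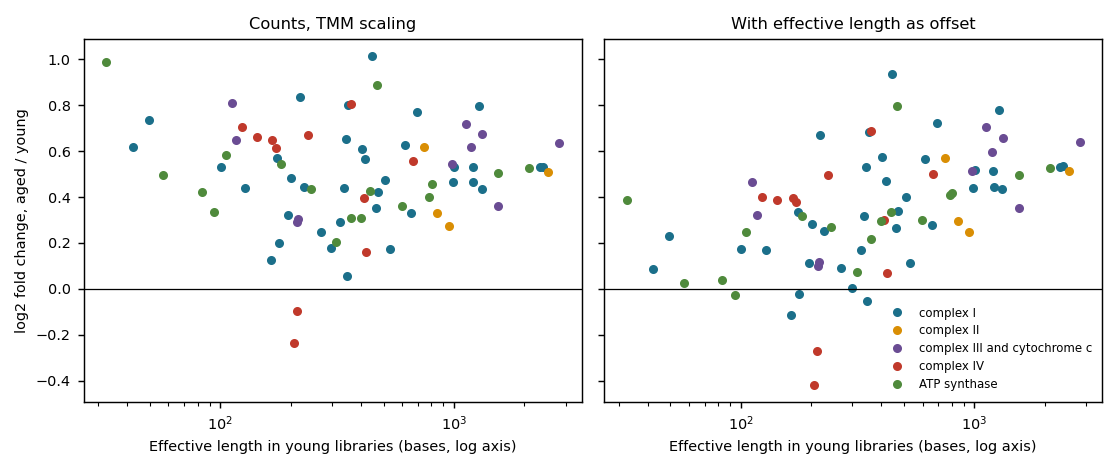
Log2 fold change of each ubiquitous subunit against its mean effective length in young libraries (log axis, bases), from the counts alone (left) and with effective length as an offset (right); colours give the complex. Without the offset the median is 0.50 and with it 0.35, and the shortest transcripts, at the left of each panel, move most.

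Genes that supply or build the chain were counted in the same fit. In pyruvate dehydrogenase and the citric acid cycle, which feed complexes I and II, 15 of 17 genes rose and none fell (median log2 fold change 0.47), with Idh3a at 0.89 and Fh1 at 0.63. In fatty acid beta-oxidation 11 of 17 rose (median 0.31), with Cpt1b, the muscle form of the carnitine transferase, at 2.14 and Eci1 at 0.89. Assembly factors, which help to put the complexes together, had 11 of 45 higher and 1 lower (median 0.17), and the 24.4% higher is about the 24.7% of all tested genes. Among them the copper chaperone Cox17 had 0.80, Ecsit 0.62 and Cox18 −0.43. The mitochondrial ribosome, which makes the subunits encoded in the organelle, had 11 of 78 higher and 2 lower (median 0.10; Mrpl55 0.58, Mrpl2 0.46, Mrpl17 −0.25), and import 3 of 20 higher (median 0.07; Hspa9 0.41, Timm10 0.33). Both shares of higher genes lay below that of all tested genes. With the muscle score as a covariate 0 genes of these 5 lists were called higher by edgeR. Of all tested genes 24.1% were called there, in either direction. Medians were 0.11 in the citric acid cycle list and 0.13 in beta-oxidation, and Cpt1b had 0.59 (edgeR adjusted p = 0.114). Sdhaf1, Mrpl17 and Mrps2 were called lower in that fit.

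Regulators of mitochondrial biogenesis had 6 of 16 genes higher and 4 lower (median 0.07). Ppargc1a, a coactivator that raises respiratory chain genes, had a log2 fold change of 2.05 and Esrrg, an oestrogen-related receptor, 1.96, while Gabpa, the DNA-binding part of GABP, had −0.27. Ppargc1a and Esrrg were low, with means of 1.11 and 1.66 CPM in young and 4.64 and 6.46 in aged libraries. Among carriers and uncouplers 3 of 8 rose and 1 fell. Slc25a4, the ATP/ADP carrier of heart and muscle, rose by 1.16 and its relative Slc25a5 fell by 0.37 on the log2 scale, and Ucp3, an uncoupling protein of muscle, rose by 1.53. Ucp3 was also low, with means of 2.57 CPM in young and 7.46 in aged libraries. Of 11 genes for membrane shape 3 rose (Mfn2 0.80, Mfn1 0.58) and none fell, and 27.3% is close to the background share. With the muscle score as a covariate 0 of the 11 were called, and of the other lists here only Nrf1 (0.26, adjusted p = 0.0369) and Ucp2 (0.65, 0.0231) were, by edgeR. The share of all tested genes called there was 24.1%, in either direction. In that fit Ppargc1a had 0.81 (adjusted p = 0.166), Esrrg 0.45 (0.659) and Slc25a4 0.12 (0.767).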

How the data were processed

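RNA from mandibular condylar cartilage was extracted with TRIzol, captured on oligo(dT) and sequenced as paired, strand-specific reads, per the labels' protocols. HISAT2 2.1.0, Bowtie2 2.3.4.3, RSEM 1.3.1, DESeq2 1.4.5 and the build GRCm39 are named without roles, per the submitters' processing notes; no source used here names the annotation. The authors' deposited table holds expected counts (5.30% of values were not whole), FPKM and TPM, the last pair normalised by them for transcript length and depth, per the file headers; TPM were not analysed. The counts, rounded, were fitted in edgeR 4.0.16 (R 4.3.3; filterByExpr with minimum count 10, TMM, robust glmQLFit) on age alone in all 13 libraries, with Benjamini-Hochberg adjustment over 14067 genes and a threshold of 0.05. The depth leaves the spread between libraries as the main error for all but the lowest members.

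Isoform ratios used log2(FPKM + 0.1). Marker scores were mean log2 CPM (prior count 2). Effective length was the count divided by FPKM and depth, and its use was chosen after seeing the data. Alternatives were other filters, library scalings, limma 3.58.1 on FPKM, DESeq2 1.42.0, a replicate block, 2 marker covariates and each library left out. Members, lists and rules were chosen with earlier results of these data known. Named members are, per complex, that with the highest mean FPKM, the 2 with the largest called rises, that with the lowest fold change, any called lower, all of complex II and the isoforms with their partners; other members named, such as Ndufv1, Ndufs1, Uqcrc1, Uqcrfs1, Cox5b, Cox6b1, Atp5a1 and Atp5b, were chosen after their values were seen. The scripts were tested on simulated data. Libraries of one age all differed by more than sampling noise (smallest chi-square per degree of freedom 10.2). In the deposited table, 6 columns of other values were not used. The values of 1 ubiquitous subunit are not reported here, though it is in the counts.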

Additional observations from a re-analysis of the deposited data

Results flagged for a closer look

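Young 2 stood apart from the other young libraries in 4 of the 66 groups of values checked with Dixon's test, and chance flags about 1 in 20 groups. Sdha was at 217 CPM in young 2, against 166 to 188 in the other young libraries. Cyc1 was at 80.4 CPM, against 58.7 to 66.6, and Cycs at 79.8 CPM, against 56.0 to 65.9. The log2 ratio of Atp5g1 to Atp5g3 was −0.77 in young 2, against −1.31 to −1.09. Young 2 also had the largest share of muscle marker counts of the young libraries (0.644%), and its part in these values was not tested. Without young 2, 52 of the 78 ubiquitous subunits were called higher, the same number as with it.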

How the results depend on the processing

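Without 1 library, the ubiquitous subunits called higher numbered 38 (without aged 5) to 68 (without aged 1) and those called lower 0 to 1, and 38 of the 52 calls were kept in all 13 such fits. The counts ran from 19 to 31 in complex I, 2 to 4 in complex II, 6 to 10 in complex III with cytochrome c, 5 to 8 in complex IV and 6 to 15 in ATP synthase. Over all tested genes, 5888 to 6513 were called in either direction in these fits. How many of all calls were kept in every such fit was not counted. With the muscle score as covariate 0 subunits were called in every complex, and 3396 genes in all; Ndufc2 then had −0.12, Sdhd −0.017, Uqcrh −0.075, Cox7a2 −0.0088, Cox8a 0.043 and Atp5g3 −0.12 (log2). With the erythroid and neutrophil score the calls were 28 higher and 0 lower, in complexes I to IV 15, 1, 5 and 3, in ATP synthase 4, and of all tested genes called there were 2294. With library sizes alone 74 were called higher, 0 lower and 17 in ATP synthase, and Cox8a had 0.14 and Cox7a2l 0.12; relative to the median of all genes the ubiquitous median was 0.49 there, as in the main analysis, but 0.34 and 0.31 with limma on log2(FPKM + 1) and log2(FPKM + 0.1) and 0.33 with the effective length offset. With either limma setting 59 were higher and 0 lower, and Cox7a2l had 0.034 in both. The effective length offset gave 37 higher and 2 lower, 5 in complex IV and 4 in ATP synthase, and −0.054 for Ndufc2, which ran from −0.055 (without aged 2; −0.034 without aged 5) to 0.13 with 1 library left out. The log2 ratio of Ndufa4l2 to Ndufa4 ran from −0.26 to 0.069 (without aged 2; 0.013 without aged 5). Where the cause of a change is not the alternative's own construction, the cause was not tested.

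The replicate block (numbers 1 to 6) gave 47 subunits higher and 0 lower, 21, 3, 7 and 7 in complexes I to IV, 9 in ATP synthase, 3 muscle isoforms and 5771 of all tested genes called. Same-numbered libraries had correlations of deviations from −0.12 to 0.26, with 5 of 6 over 0.1. Only young 3 and young 5 had their highest correlation with the aged library of the same number, so the numbers are not taken to pair them.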
